A study of Mus musculus with 12 samples.

Results

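The 38 Hox genes described here, of 22028 protein-coding genes in the GENCODE M21 annotation of the mouse genome (GRCm38), lie in 4 clusters: 10 genes of Hoxa on chromosome 6, 10 of Hoxb on chromosome 11, 9 of Hoxc on chromosome 15 and 9 of Hoxd on chromosome 2. Their members in the data are the ATAC-seq peaks that overlapped the gene bodies widened by 2 kb on each side, a choice made by position and not by signal. These windows covered 373 kb and held 91 of 91354 peaks in the table of BGI peaks and 104 of 87027 peaks in the table of Illumina peaks. The assay was Omni-ATAC-seq, which uses a transposase to cut and tag open DNA. It was applied to embryonic fibroblasts of the mouse (MEFs), sorted as Thy1+, and to its embryonic stem cells (mESCs), sorted as Thy1-/Ssea1+/Epcam+. Both had a C57/Bl6 background and no stated treatment. MEF libraries 1, 2 and 4 and mESC libraries 1, 3 and 5 were each read by 2 platforms, the DNBSEQ-G400 of BGI and the HiSeqX10 of Illumina, so that 6 libraries gave 12 samples in 4 groups. The study calls the libraries biological replicates, and no source used here says whether they came from separate animals or lines, so that p-values measure the spread between these libraries. Because each platform read the same libraries, its values below are a second reading of the same material and not an independent test.

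Hox genes encode homeodomain transcription factors that give cells their position along the body axis. Within a cluster the genes stand in the order in which they are used: genes with low paralogue numbers lie at the 3′ end and act in anterior regions, and genes with high numbers lie at the 5′ end and act in posterior regions and in the limbs and genital tubercle. Fibroblasts keep the Hox pattern of the body region they came from, whereas in pluripotent cells the clusters are largely silent and are covered by Polycomb group proteins. Hox promoters are CpG-rich. Below, paralogues 1 to 3 are called anterior, 4 to 8 central and 9 to 13 posterior.

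The 2 Hox peaks with the largest losses and the 3 with the largest gains in mESCs on BGI were taken for their sequences. Printed below are their central 300 bases, read from the reference genome (RefSeq assembly of GRCm38, + strand) so that the sites can be seen beside the values that follow. Capitals mark matches, on either strand, to a HOX-PBX site, spelled TGATTNAT with N for any base, or to an AP-1 site, spelled TGANTCA. They also mark the CCAAT box, spelled as its name. A TATA element, spelled TATAAA, is marked as well. Of the 2 peaks that were far lower in mESCs, the peak in the Hoxa3 window (chr6:52185193-52185492) holds a HOX-PBX match between 2 AP-1 matches, and the peak in the Hoxa2 window (chr6:52161113-52161412), which lies past the 3′ end of Hoxa2 at the antisense RNA gene Hotairm1, holds a HOX-PBX match.
Hoxa3 window, lower in mESCs: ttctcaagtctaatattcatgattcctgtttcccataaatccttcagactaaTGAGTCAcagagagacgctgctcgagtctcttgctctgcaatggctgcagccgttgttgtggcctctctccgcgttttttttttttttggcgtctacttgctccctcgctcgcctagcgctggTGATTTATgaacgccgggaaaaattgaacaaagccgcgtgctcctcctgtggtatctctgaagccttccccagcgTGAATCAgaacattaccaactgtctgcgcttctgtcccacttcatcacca
Hoxa2 window, lower in mESCs: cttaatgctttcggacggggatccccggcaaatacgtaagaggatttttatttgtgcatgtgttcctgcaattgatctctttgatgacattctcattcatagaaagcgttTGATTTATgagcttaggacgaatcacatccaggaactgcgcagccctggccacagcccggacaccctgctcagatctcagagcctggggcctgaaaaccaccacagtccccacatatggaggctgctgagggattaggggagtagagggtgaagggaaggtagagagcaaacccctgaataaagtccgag

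Of the 3 peaks that were far higher in mESCs, the peak in the intron of Hoxa11 (chr6:52243713-52244012), 279 bp from the start of the antisense gene Hoxa11os, holds none of these matches in the printed stretch, the peak just upstream of Hoxd13 (chr2:74667869-74668168) holds a CCAAT box and 2 overlapping TATA matches, and the peak just upstream of Hoxc13 (chr15:102920642-102920941) holds a CCAAT box. These 5 were chosen by their values, so their matches are a description only.
Hoxa11 intron, higher in mESCs: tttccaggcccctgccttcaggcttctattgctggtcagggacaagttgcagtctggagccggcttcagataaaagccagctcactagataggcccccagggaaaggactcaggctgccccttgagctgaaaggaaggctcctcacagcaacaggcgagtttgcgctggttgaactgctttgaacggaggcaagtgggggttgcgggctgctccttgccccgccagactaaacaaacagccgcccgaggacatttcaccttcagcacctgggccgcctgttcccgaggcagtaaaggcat
Hoxd13 promoter, higher in mESCs: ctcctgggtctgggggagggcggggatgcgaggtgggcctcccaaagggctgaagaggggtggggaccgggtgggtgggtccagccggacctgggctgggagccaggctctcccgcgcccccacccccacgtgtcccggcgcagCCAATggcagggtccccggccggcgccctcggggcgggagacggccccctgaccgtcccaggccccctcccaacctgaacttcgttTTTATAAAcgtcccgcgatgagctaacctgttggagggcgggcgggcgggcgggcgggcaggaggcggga
Hoxc13 promoter, higher in mESCs: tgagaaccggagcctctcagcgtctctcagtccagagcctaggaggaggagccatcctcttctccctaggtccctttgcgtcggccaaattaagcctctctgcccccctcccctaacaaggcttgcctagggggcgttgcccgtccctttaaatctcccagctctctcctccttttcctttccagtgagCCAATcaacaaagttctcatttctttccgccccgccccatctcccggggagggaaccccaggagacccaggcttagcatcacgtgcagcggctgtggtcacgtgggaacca

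Reads were counted in peaks by the authors, and values below are counts per 1 M reads in all peaks of the table (CPM). On their own peak sets the BGI samples held 15860985 to 21662775 reads in peaks and the Illumina samples 15996202 to 21441767, more in MEFs than in mESCs. The cell type labels were checked on the promoter peaks of marker genes. On BGI, 7 of 8 mESC markers were higher in mESCs (all but Esrrb), with a summed level of 24.9 to 27.3 CPM in MEFs and 205 to 236 CPM in mESCs, and 7 of 8 fibroblast markers were lower (all but Pdgfra), from 258 to 293 CPM in MEFs to 77.4 to 87.5 CPM in mESCs. Among markers of other cells on BGI, the blood genes Ptprc and Spi1 had no promoter peak and the third, Cd34, was lower in mESCs (17.8 and 13.4 CPM). The endothelial gene Cdh5 had none, and Kdr (14.5 and 14.2 CPM) and Tek (6.43 and 8.62 CPM) were not called. Of the primitive endoderm genes, Gata4 was higher (9.28 and 14.4 CPM), Gata6 lower (35.2 and 23.6 CPM) and Sox17 without a peak. The trophoblast genes Eomes and Tfap2c were higher in mESCs on BGI (summed 18.6 to 20.9 against 39.2 to 49.3 CPM), as were the 3 neural genes (23.6 to 26.3 against 70.0 to 75.7 CPM), while on Illumina the neural gene Pax6 was lower (18.9 and 14.3 CPM). The part of such promoters in the results below was not tested.

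The Hox windows were on balance less accessible in mESCs than in MEFs, but the clusters were not uniform. On BGI, 53 of the 91 Hox peaks were lower in mESCs, 16 were higher and 22 were not called, in edgeR's quasi-likelihood test with Benjamini-Hochberg adjustment over all peaks. Of all peaks, 43.2% were called lower and 40.9% higher. The share of Hox peaks called in either direction was 75.8%, below the 84.1% of all peaks. The 3 mESC libraries lay wholly below the 3 MEF libraries at 52 Hox peaks and wholly above them at 20, and 85.1% of all peaks were separated in this way. Among changes of 1 log2 unit or more, 27 Hox peaks were lower and 8 higher, 38.5% of the 91 against 63.0% of all peaks. The median log2 fold change was -0.49 over the Hox peaks and -0.08 over all peaks. Scaled by the down-sampled depths in place of the reads in peaks, 44 Hox peaks were lower and 22 higher, so that 33.3% of the calls were higher in place of 23.2%.

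On Illumina, 49 of the 104 Hox peaks were lower in mESCs, 27 higher and 28 not called. The background was 42.4% lower, 42.1% higher and 84.5% called in either direction. The groups were separated at 80 Hox peaks, where 85.6% of all peaks were, and 39 (26 lower and 13 higher) changed by 1 log2 unit or more, against 61.8% of all peaks. Here the median log2 fold change was -0.30 over the Hox peaks and -0.03 over all peaks. In bulk samples, a site open in fewer cells and a site less open in each cell cannot be told apart.

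Summed over its peaks, each cluster except Hoxd lost accessibility. The 23 Hoxb peaks held 243, 224 and 247 CPM in MEF 1, 2 and 4 and 162, 152 and 160 CPM in mESC 1, 3 and 5 on BGI, a ratio of mESC to MEF means of 0.66. The 29 Hoxc peaks went from 313 ± 12.01 to 221 ± 10.2 CPM (SD, n = 3 and 3; ratio 0.70) and the 22 Hoxa peaks from 237.5 ± 6.91 to 193 ± 6.25 CPM (SD, n = 3 and 3; ratio 0.81). Hoxd was the other way round. Its 17 peaks held 127, 131 and 151.3 CPM in the MEF libraries and 151.4, 161 and 167 CPM in the mESC libraries, a ratio of 1.17, and MEF 4 and mESC 1 all but touched. In every cluster the mESC libraries lay on one side of the MEF libraries in these CPM. For this the two-sided exact permutation test gave p = 0.1, the smallest that 3 against 3 allows, so none of these sums can pass 0.05. In Hoxd on BGI the separation depended on the scaling. With library sizes adjusted by edgeR's TMM factors (0.995 for MEF 4 and 1.02 for mESC 1), mESC 1 fell below MEF 4. On Illumina the ratios were 0.72 for Hoxb, 0.73 for Hoxc, 0.90 for Hoxa and 1.25 for Hoxd, with p = 0.1 each in the same exact permutation test.

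**Figure D1:**
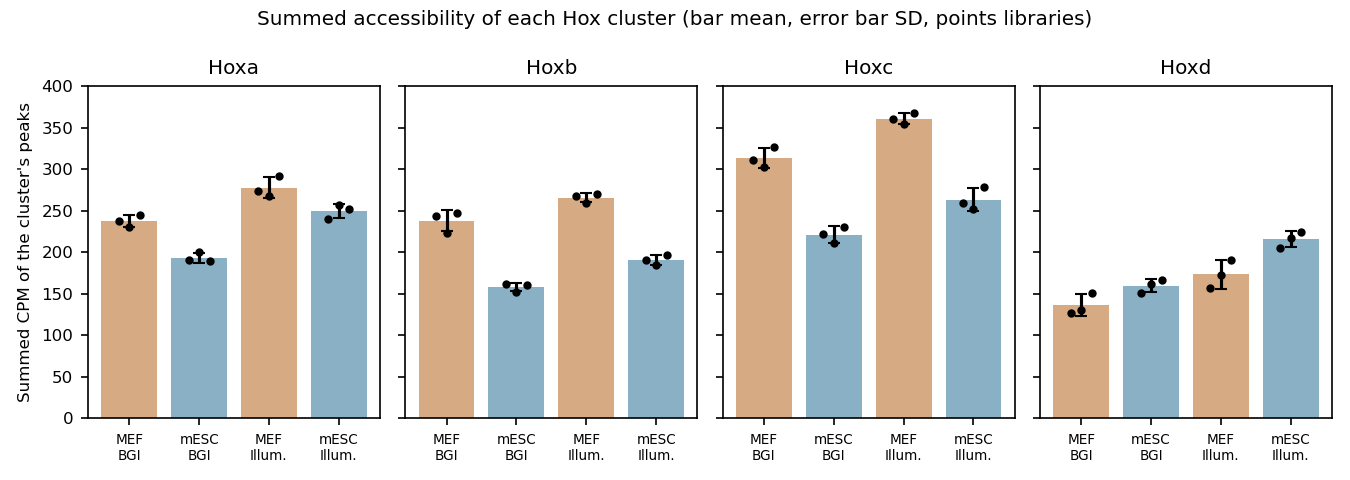
Summed CPM of the peaks of each Hox cluster (y axis) in MEFs and mESCs on BGI and on Illumina (x axis); bars are means, error bars SD and points the 3 libraries. The mESC points lie below the MEF points for Hoxa, Hoxb and Hoxc and above them for Hoxd.

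Anterior and central peaks together lost accessibility, while posterior peaks were mixed. On BGI, central peaks summed to 449 ± 23.1 CPM in MEFs and 285 ± 5.69 CPM in mESCs (SD, n = 3 and 3; ratio 0.63), and anterior peaks to 182 ± 10.4 and 117 ± 0.771 CPM (ratio 0.65). Posterior peaks summed to 293, 285 and 305 CPM in MEF 1, 2 and 4 and to 317, 328 and 344 CPM in mESC 1, 3 and 5, a ratio of 1.12. The posterior libraries of the 2 cell types did not overlap, and neither did the others (two-sided exact permutation test, p = 0.1 for each segment, the smallest possible). On BGI the posterior gain rests on 2 promoter peaks described below, those of Hoxc13 and Hoxd13. Without both, which were picked after their values were seen, the posterior sums were 282 ± 10.4 and 279 ± 7.19 CPM (SD, n = 3 and 3; ratio 0.99) and the libraries overlapped, and on Illumina the ratio went from 1.13 to 1.05, again with overlap. By cluster on BGI, the 5 posterior peaks of Hoxb, near Hoxb9 and Hoxb13, went from 68.3 ± 3.31 to 33.0 ± 2.88 CPM (ratio 0.48), and the 7 of Hoxd from 48.0 ± 5.01 to 88.8 ± 4.79 CPM (ratio 1.85, and 1.63 without Hoxd13). The 8 of Hoxa went from 70.2 to 85.2 CPM (1.21). The 12 of Hoxc went from 108 to 123 CPM (1.14), but 7 of them had a log2 fold change below 0, and without Hoxc13 the other 11 went from 99.4 ± 3.34 to 89.6 ± 3.50 CPM (0.90). The 17 central Hoxc peaks went from 205 ± 8.88 to 97.8 ± 7.496 CPM (0.48).

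In counts of peaks, 12 of 17 anterior peaks were lower and 1 higher, 28 of 42 central peaks were lower and 3 higher, and 13 of 32 posterior peaks were lower and 12 higher on BGI, beside 43.2% lower and 40.9% higher among all peaks. All 6 called posterior peaks of Hoxd, of 7, were higher, and all 14 called central peaks of Hoxc, of 17, were lower. On Illumina the same counts were 10 lower and 5 higher of 19 anterior, 26 lower and 4 higher of 45 central, and 13 lower and 18 higher of 40 posterior peaks, with 8 of 9 posterior Hoxd peaks higher.

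**Figure D2:**
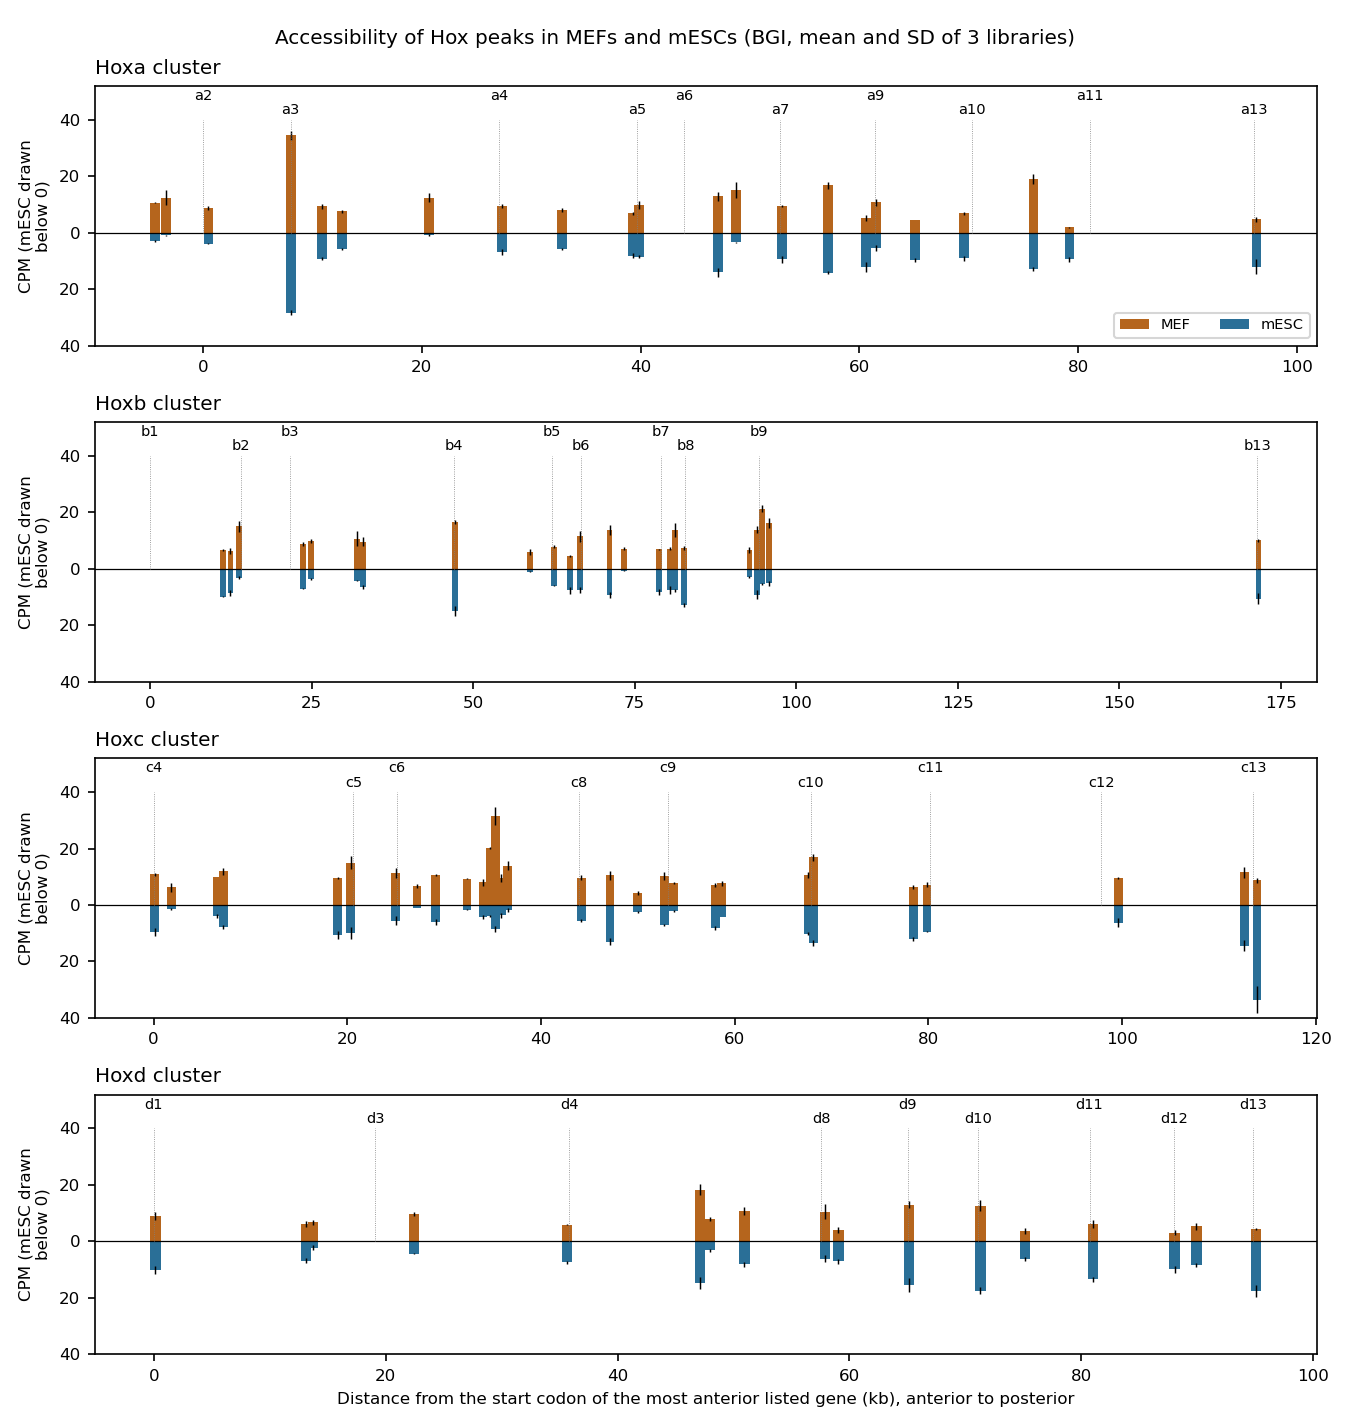
Accessibility of the 91 Hox peaks on BGI in CPM (y axis, MEF drawn above and mESC below 0) along each cluster in kb from the start codon of its most anterior listed gene (x axis); bars are means of 3 libraries with SD. The tallest MEF bars are in the Hoxa3 window (34.5 CPM) and in the Hoxc6 window (31.5 CPM), and the tallest mESC bar is at Hoxc13 (33.5 CPM).

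For each gene, the lead promoter peak was the peak with the highest mean CPM within 1 kb of the transcription start site (TSS) nearest its start codon, with coding transcripts that carry a consensus coding sequence taken where there were any. On BGI, 33 of the 38 genes had such a peak, each gene its own; Hoxa6, Hoxa11, Hoxb1, Hoxb3 and Hoxc12 had none. The peak was lower in mESCs in 14 genes and higher in 7. Of all BGI peaks within 1 kb of an annotated TSS, 41.0% were lower and 31.3% higher, and of all peaks 43.2% and 40.9%. On Illumina, 36 genes had such a peak, 13 lower and 11 higher, beside 42.4% and 42.1% of all peaks, with Hoxa6 and Hoxb3 left without.

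Among anterior genes, which pattern the hindbrain and neck, no promoter was higher in mESCs on BGI. Hoxb2, which acts in hindbrain segments, held 13.02, 16.7 and 15.4 CPM in MEF 1, 2 and 4 and 3.59, 3.13 and 2.55 CPM in mESC 1, 3 and 5. The groups were far apart, with a log2 fold change of -2.35 (SE 0.19, adjusted p = 2.73e-09, edgeR). Hoxa3, needed for the thymus and parathyroid, went from 15.1 ± 2.83 to 3.42 ± 0.290 CPM (SD, n = 3 and 3; log2 fold change -2.21) at the TSS chosen by the rule, which lies 40466 bp from its start codon. A window of 2 kb brings in another peak there, with a log2 fold change of 0.07. Hoxa2, the gene that sets the identity of the second pharyngeal arch, and Hoxd3 were lower as well, by -1.26 and -1.18 on the log2 scale. Hoxd1 was not called (8.91 ± 1.47 and 10.2 ± 1.54 CPM, log2 fold change 0.13, adjusted p = 0.507, edgeR), and its libraries overlapped. Hoxb1, a marker gene of the fourth hindbrain segment and an early retinoic acid target, had no peak on BGI, but on Illumina its promoter held 1.91, 1.64 and 1.58 CPM in MEFs and 5.81, 4.36 and 5.71 CPM in mESCs. It was the only anterior promoter higher in mESCs there (log2 fold change 1.58, SE 0.26, adjusted p = 2.21e-05, edgeR), at levels low beside the median Hox peak of 8.10 CPM in mESCs. Counted in the BGI samples at the same place, the difference was 1.06 (adjusted p = 0.00376, edgeR).

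Central genes, which pattern the cervical to thoracic trunk, were lower or not called, apart from Hoxb8. Of 14 with a promoter peak on BGI, 7 were lower. The largest difference was at Hoxc6, a gene of the thoracic region, with 11.1, 9.74 and 13.04 CPM in MEFs and 6.998, 3.78 and 5.96 CPM in mESCs (log2 fold change -1.09, SE 0.21, adjusted p = 0.000104, edgeR). Hoxc8 (-0.90), Hoxd8 (-0.80), Hoxb6 (-0.70), Hoxc5 (-0.67), Hoxa4 (-0.57) and Hoxb5 (-0.49) followed in size. Of these, Hoxa4 was not called on Illumina (-0.32, adjusted p = 0.118, edgeR). Hoxb8, which also has a role in haematopoietic cells and microglia, was the exception: it held 8.31, 7.21 and 7.02 CPM in MEFs and 13.4, 12.2 and 12.5 CPM in mESCs (log2 fold change 0.69, SE 0.16, adjusted p = 0.000546, edgeR). With a window of 2 kb, the exonic peak described below (-0.94) takes its place. Hoxa5, Hoxa7, Hoxb4, Hoxb7, Hoxc4 and Hoxd4 lay between -0.27 and 0.27 and were not called on BGI. Among them Hoxd4 passed the test on Illumina (0.51, adjusted p = 0.0112, edgeR). Hoxb4, at 16.6 CPM in MEFs and 14.9 CPM in mESCs, had the most accessible lead peak of the central genes in both cell types. It was not called, and its libraries overlapped.

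Posterior genes, which pattern the lumbar to tail region, the limbs and the urogenital tract, held 6 of the 7 promoters higher in mESCs on BGI. Hoxd13, whose mutations cause fused and extra digits, held 4.52, 4.32 and 3.98 CPM in MEF 1, 2 and 4 and 15.2, 17.98 and 19.3 CPM in mESC 1, 3 and 5, 4.09 times as much (log2 fold change 1.96, SE 0.16, adjusted p = 4.32e-09, edgeR). Hoxc13, a gene of hair follicles and nails, held 9.69, 8.10 and 8.36 CPM in MEFs and 28.1, 34.7 and 37.7 CPM in mESCs (1.87, SE 0.13, adjusted p = 6.55e-10). It was the most accessible Hox peak of all in mESCs. Next to Hoxd13, Hoxd12 went from 3.08 ± 0.938 to 10.003 ± 1.24 CPM (1.64), Hoxd11 from 6.04 ± 1.503 to 13.6 ± 1.01 CPM (1.10) and Hoxd10 from 12.7 ± 1.81 to 17.5 ± 1.32 CPM (0.41). Hoxa13, which acts in the hands, feet and genital tract, went from 4.79 ± 0.924 to 12.03 ± 2.66 CPM (1.26, adjusted p = 2.17e-05, edgeR). Along Hoxd the promoter differences on BGI stood in the order of the genes only from Hoxd8 to Hoxd13, a run picked after the values were seen. They were -0.80, 0.18, 0.41, 1.10, 1.64 and 1.96, and of these only Hoxd9 was not called. The promoters before them broke the order, with 0.13 at Hoxd1, -1.18 at Hoxd3 and 0.27 at Hoxd4. On Illumina the values from Hoxd8 to Hoxd13 were -0.59, 0.22, 0.36, 1.33, 1.66 and 1.38, so that Hoxd13 lay below Hoxd12 there. Illumina reads counted at the BGI peaks gave 1.65 at Hoxd12 and 1.64 at Hoxd13.

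Of the other posterior promoters with a peak on BGI, 3 were lower in mESCs and 5 were not called. Hoxb9, expressed in the trunk up to the thoracic region, had the most accessible lead promoter peak in MEFs, with 22.8, 21.4 and 20.01 CPM, and held 5.04, 5.20 and 5.59 CPM in mESCs. All mESC libraries lay at about 5 CPM, a log2 fold change of -2.09 (SE 0.14, adjusted p = 3.98e-10, edgeR). Hoxa9, known for its part in leukaemia, was lower at the promoter chosen (-1.05), and Hoxc10 slightly so (16.9 ± 1.16 and 13.5 ± 1.19 CPM, -0.40). Hoxa10, a gene of the uterus and lumbar region, had 6.95 and 9.14 CPM, Hoxc11 7.26 and 9.44 CPM, Hoxc9 7.10 and 8.17 CPM, Hoxd9 13.01 and 15.4 CPM and Hoxb13, a prostate gene, 10.1 and 10.6 CPM in MEFs and mESCs, and none of these was called on BGI. On Illumina, Hoxc11 (0.44) passed the test, and Hoxc12, without a peak on BGI, held 2.84, 3.97 and 3.05 CPM in MEFs and 8.63, 10.3 and 9.86 CPM in mESCs (1.501, SE 0.20, adjusted p = 1.78e-06, edgeR), but -0.76 at the peak that a window of 2 kb chooses. At the same place the BGI samples gave 1.36 (adjusted p = 6.27e-05, edgeR).

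**Figure D3:**
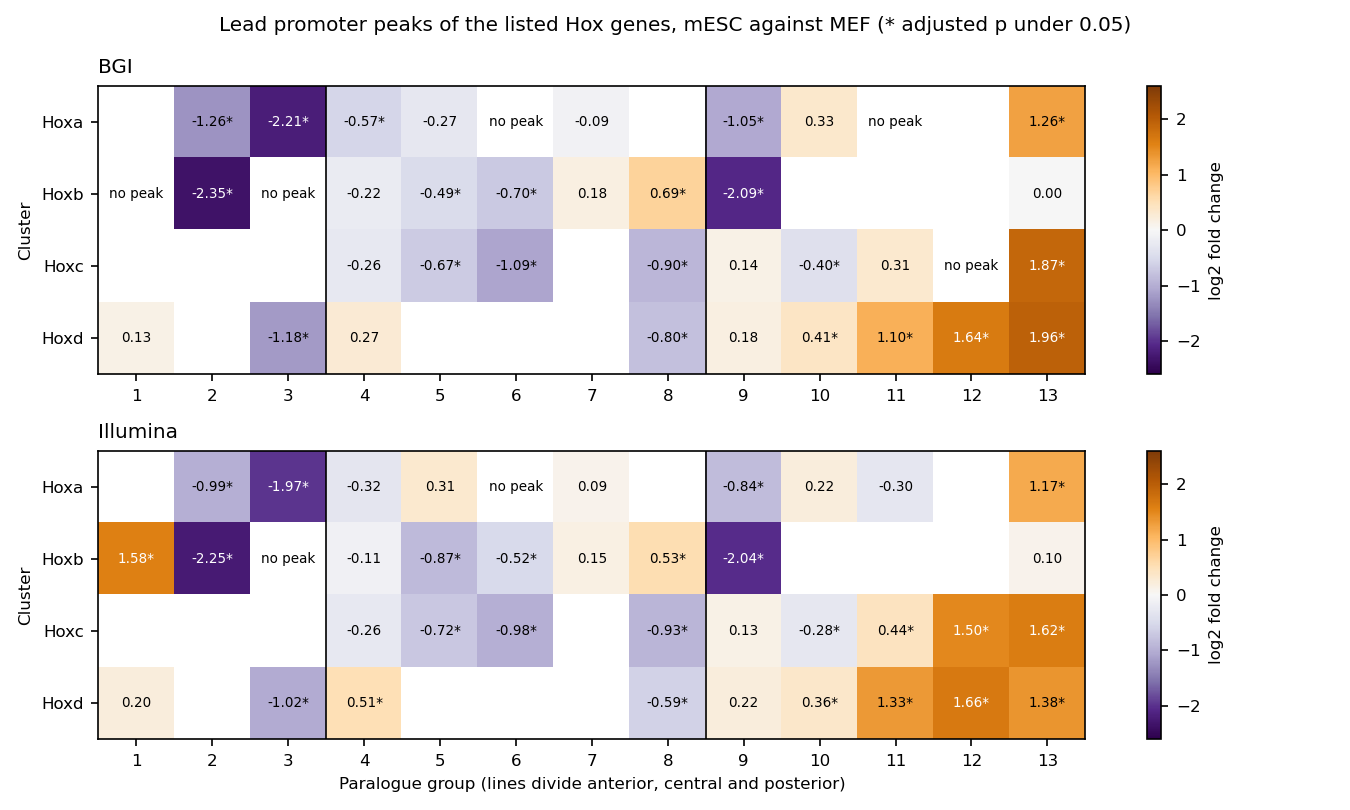
Log2 fold change of mESC against MEF (colour and printed value) at the lead promoter peak of each listed Hox gene by cluster (y axis) and paralogue group (x axis), for BGI and Illumina; stars mark an adjusted p under 0.05. The 6 posterior promoters higher on BGI lie at groups 10 to 13 and the 4 anterior promoters lower at groups 2 and 3.

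By paralogue group, all 4 promoters of groups 2 and 3 with a peak were lower on both platforms, with medians of -1.80 and -1.69 on BGI. Both promoters of group 6 with a peak were lower as well. In group 3, the Hoxa3 value is from a TSS 40466 bp from its start codon, at a peak nearest the start codon of Hoxa7. With a 2-kb window Hoxa3 was 0.07 on BGI and 0.20 on Illumina. In group 13, Hoxa13, Hoxc13 and Hoxd13 were higher and Hoxb13 was not called, with a group median of 1.57 on BGI and 1.27 on Illumina. Within 1 group, cluster members could go apart: in group 8 the Hoxb8 promoter was higher while Hoxc8 and Hoxd8 were lower, and in group 10 the Hoxd10 promoter was higher while Hoxc10 was lower.

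Away from the lead promoters, the largest losses on BGI were at 5 peaks that were nearly closed in mESCs. The peak in the Hoxa3 window shown above (chr6:52185093-52185594), 219 bp from a Hoxa3 TSS, held 13.7, 13.1 and 10.6 CPM in MEF 1, 2 and 4 and 1.07, 0.650 and 0.683 CPM in mESC 1, 3 and 5. It was 15.5 times lower in mESCs (log2 fold change -4.02, SE 0.26, adjusted p = 1.40e-10, edgeR). The peak past the 3′ end of Hoxa2, at Hotairm1, a long non-coding RNA of myeloid and neural differentiation, held 11.3, 10.5 and 15.4 against 1.14, 0.710 and 0.808 CPM (-3.87, SE 0.26). A peak over a Hoxb6 TSS held 7.76, 6.76 and 6.87 against 0.757, 0.473 and 0.621 CPM (-3.59, SE 0.29). The highest mESC value among these 3 peaks was 1.14 CPM. The remaining 2 were in the Hoxc6 gene, over a Hoxc6 TSS (13.98 ± 1.53 and 1.77 ± 0.670 CPM, -3.05) and in an intron (6.75 ± 0.857 and 1.08 ± 0.0783 CPM, -2.69).

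Among the 5 largest gains, 4 were the promoters of Hoxd13, Hoxc13, Hoxd12 and Hoxa13 given above. The fifth and largest was the peak in the Hoxa11 intron, with 2.03, 1.89 and 1.79 CPM in MEFs and 10.4, 8.93 and 8.95 CPM in mESCs, 4.95 times as much (log2 fold change 2.23, SE 0.22, adjusted p = 3.12e-08, edgeR). The Illumina table has no peak there, but Illumina reads counted at the BGI peaks gave 2.22 for this site, -2.84 for the Hoxa2 site, -4.78 for the Hoxa3 site, -2.88 for the Hoxb6 site and -3.36 for the Hoxc6 intron. In the Illumina table's own peaks the largest loss was again in the Hoxa3 window (11.8 ± 0.954 and 0.472 ± 0.508 CPM, -4.68). Its size rests on few reads, from 2 in an mESC library, and was -5.997 without mESC 5 and -4.24 without mESC 1. The largest gain was at Hoxd12 (3.08 ± 0.627 and 10.1 ± 2.11 CPM, 1.66). On the log2 scale the largest gains were smaller in size than the largest losses on both platforms. In CPM on BGI, the gain at Hoxc13 (8.72 to 33.5 CPM) was larger than each of the 5 losses.

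**Figure D4:**
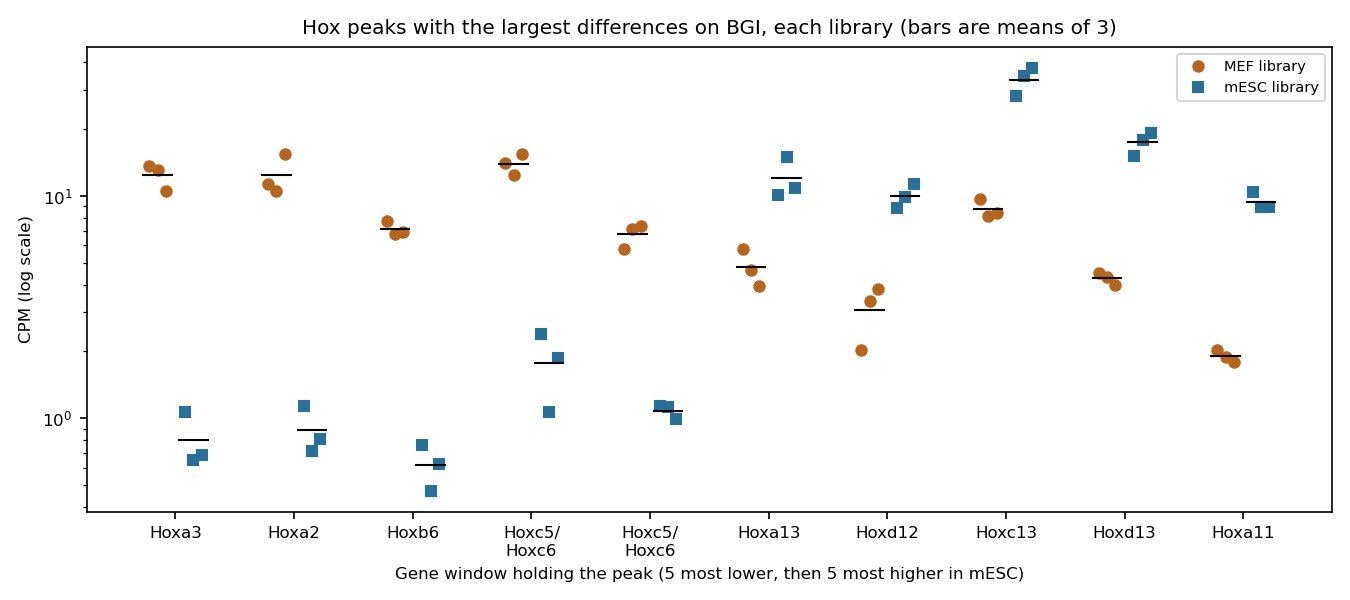
CPM on a log scale (y axis) in each BGI library for the 5 Hox peaks with the largest losses and the 5 with the largest gains, by gene window (x axis); points are libraries of MEFs and mESCs and short lines their means. The mESC points of the losses lie between 0.473 and 2.396 CPM, and the MEF points of the gains lie between 1.79 and 9.69 CPM.

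The most accessible Hox peak in MEFs differed little between the cell types. It covers the start codon of Hoxa3 (chr6:52172427-52172928) and held 33.7, 33.6 and 36.3 CPM in MEFs and 28.1, 29.3 and 27.6 CPM in mESCs (log2 fold change -0.35, SE 0.09, adjusted p = 0.00209, edgeR). The libraries did not overlap. The next, in the Hoxc6 gene (chr15:102999190-102999691), held 31.5 ± 3.198 and 8.61 ± 1.07 CPM (-1.93). In mESCs the Hoxa3 peak came after Hoxc13 and before Hoxd10 (17.5 CPM), Hoxd13 (17.5 CPM) and Hoxd9 (15.4 CPM).

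Several genes held peaks of opposite direction. In the Hoxa9 window on BGI, the lead promoter peak (10.3, 9.94 and 12.3 CPM in MEFs, 4.48, 6.39 and 5.59 CPM in mESCs) covers the start codon and was lower, while a peak downstream of it (6.23, 5.12 and 4.28 against 10.7, 11.9 and 14.1 CPM, log2 fold change 1.16, adjusted p = 1.83e-05, edgeR), which a window of 2 kb takes as the lead peak, and a peak near the microRNA gene Mir196b (4.66, 4.57 and 4.43 against 9.20, 9.46 and 10.4 CPM, 1.02) were higher. The 2 Hoxd8 peaks moved apart, the lead promoter by -0.80 and its neighbour by 0.83. In Hoxb8 the promoter was higher (0.69) and an exonic peak was lower (-0.94). In Hoxb6, 4 of 5 peaks were lower and the exonic 1 was higher (0.65). By contrast, all 9 peaks of the Hoxc6 window and all 4 of the Hoxb9 window were lower on both platforms, and all peaks of the Hoxd11, Hoxd12 and Hoxd13 windows were higher on both. The windows of neighbours overlap, and that of Hoxc5, whose annotated gene body takes in Hoxc6, Hoxc8 and Hoxc9, held 20 peaks, 16 of them lower. In all, 33 of the 91 peaks lay in more than 1 gene window.

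By location, 67 of the 91 BGI peaks lay within 1 kb of an annotated TSS, and of these 36 were lower and 12 higher, beside 41.0% lower and 31.3% higher among all promoter peaks. Of 14 intronic peaks 11 were lower and 1 higher (median log2 fold change -0.80), beside 48.3% and 42.9% of all intronic peaks. Of 7 exonic peaks 4 were lower and 2 higher, beside 29.2% and 56.8% of all exonic peaks, and of 3 intergenic peaks 2 were lower and 1 higher, beside 43.8% and 45.6%. Among all promoter peaks of the table, Hox and other, the median was -0.13, against -0.37 for the Hox promoter peaks.

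Along the clusters, the log2 fold change ran with distance from the anterior end in Hoxd (Spearman rho 0.75 over 17 peaks), Hoxa (0.60 over 22 peaks) and Hoxc (0.51 over 29 peaks), and did not in Hoxb (-0.08 over 23 peaks). On Illumina the values were 0.67, 0.58, 0.54 and -0.29. These describe peaks that share libraries and neighbours. The log2 fold change also ran with GC content over the 91 Hox peaks (rho 0.49), where the 91285 peaks of the table with a reference sequence gave 0.16. By cluster, the relation with GC was 0.60 in Hoxa, 0.54 in Hoxc, 0.42 in Hoxb and 0.21 in Hoxd. Hox peaks were richer in GC (median 58.2% against 51.0% of all peaks) and in CpG (observed over expected 0.67 against 0.28). Of the 58 Hox peaks with a GC content under 60%, 38 were lower and 9 higher, beside 44.0% and 43.7% of all peaks under 60%. Of the 33 others 15 were lower and 7 higher, beside 39.5% and 26.9% of all peaks of 60% or more. The part of GC content in the result was not tested.

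**Figure D5:**
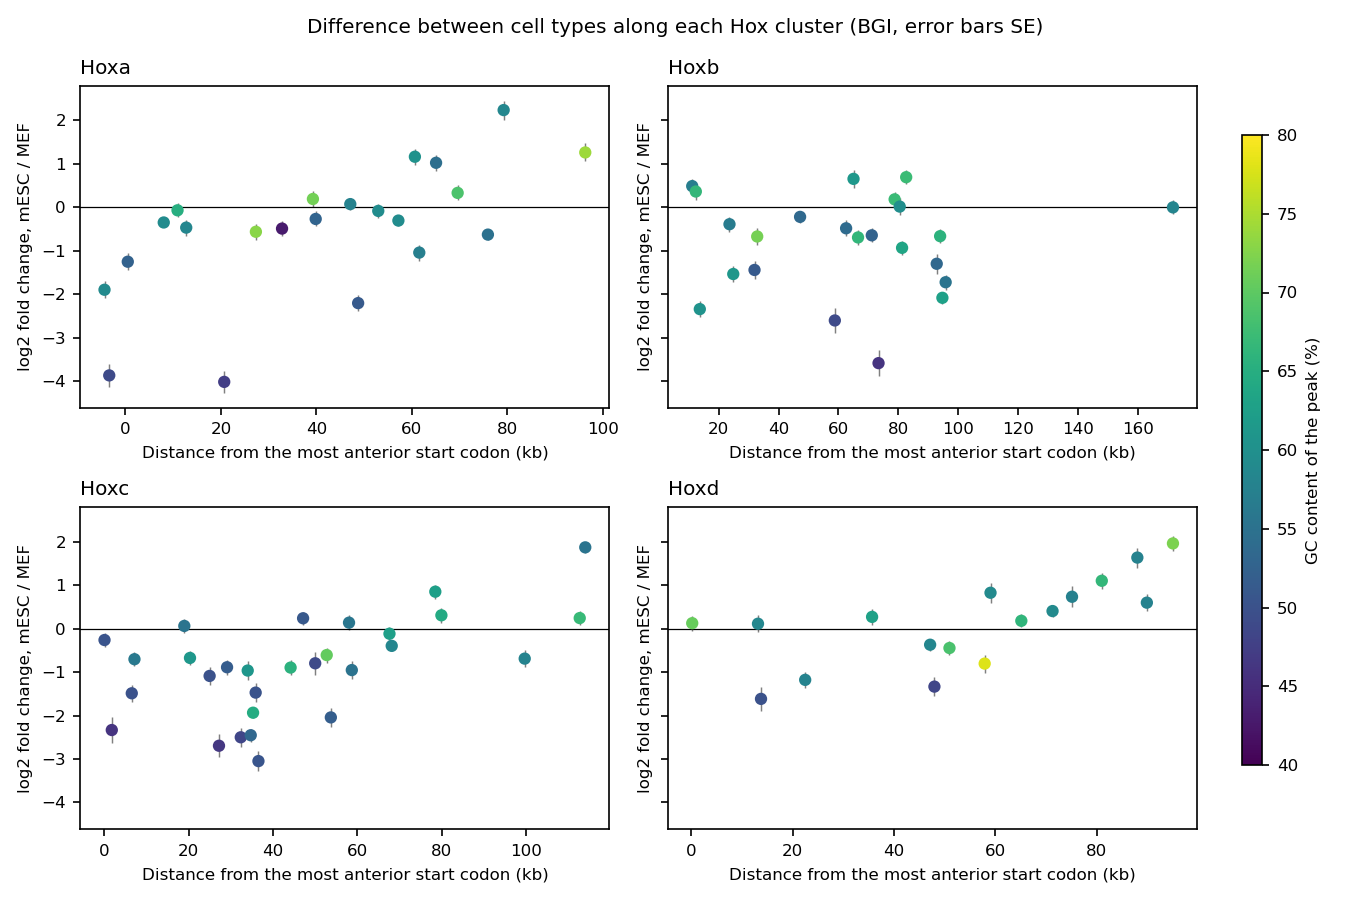
Log2 fold change of mESC against MEF with SE (y axis) for each BGI Hox peak by distance in kb from the start codon of the most anterior listed gene (x axis), a panel for each cluster, coloured by GC content in percent. In Hoxd all 7 posterior peaks lie above 0 and 6 of the 10 others below it, and in Hoxb all 5 posterior peaks lie below 0, that of Hoxb13 at -0.0047.

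Sequence matches are given as the share of peaks that hold them. The HOX-PBX site stood in 11 of 91 Hox peaks on BGI (12.1%) and in 6.26% of all peaks. It stood in 9 of the 53 Hox peaks lower in mESCs and in 1 of the 16 higher. It stood in 4 of the 5 with the largest losses and 0 of the 5 with the largest gains. On Illumina it stood in 9 of 104 Hox peaks (8.65%) and in 6.07% of all peaks. AP-1 sites (4.40% against 25.2% on BGI) and MEIS sites (TGACAG, 15.4% against 29.9%) were less common in Hox peaks than in all peaks, as was the TEAD site (GGAATG, 23.1% against 31.7%). CCAAT boxes (51.6% against 46.8%), the TATA element (18.7% against 18.05%, with 15 of the 53 lower and 1 of the 16 higher Hox peaks), the octamer (ATGCAAAT, 3.30% against 3.21%) and the CTCF core (7.69% against 9.66%) were within 5 percentage points. Shares of letters do not show that a factor binds.

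Where the reproducible peak lists of the study are set beside these values, 33 of the 91 BGI Hox peaks were on the MEF list only, 42 on both lists and 16 on the mESC list only. All 33 were lower in mESCs, where 94.6% of all peaks on the MEF list only were, and of the 16 on the mESC list only 10 were higher and 6 not called, where 93.9% of all such peaks were higher. The lists come from the same libraries and nearly fix the direction. Summits called in each sample alone were counted as well. They were called at 60 M reads in MEFs and 45 M in mESCs, and the part of this depth was not tested. Counting those with a −log10 p of 10 or more, the Hox windows held 193 to 215 summits per MEF library (mean 206 ± 11.4, SD, n = 3) and 164 to 176 per mESC library (171 ± 6.43, SD, n = 3) on BGI, and 220 ± 6.11 and 189.0 ± 2.65 (SD, n = 3 and 3) on Illumina (two-sided exact permutation test, p = 0.1 each). Over the whole genome the order was the other way round, with 116121 to 121339 such summits per MEF library and 124900 to 129705 per mESC library on BGI, and 111271 to 116227 and 120962 to 128126 on Illumina. Within the Hox windows Hoxd went with the genome, with 30.3 summits per MEF library and 49.7 per mESC library on BGI and 34.7 and 49.0 on Illumina. In Hoxa the libraries overlapped (54.0 ± 5.57 and 45.7 ± 3.79 on BGI, two-sided exact permutation test, p = 0.2).

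The same libraries could be compared between platforms at the Hox peaks of each cell type's own peak set. In MEFs, 1 of 86 Hox peaks differed between BGI and Illumina without a block for the library, beside 4.06% of all peaks, and 23 with it (22 lower and 1 higher on BGI), beside 29.2%. In mESCs, 4 of 75 differed without the block, beside 3.23%, and 29 with it (28 lower and 1 higher on BGI), beside 21.3%. The blocked comparison fits this design, since a number marks the same library on both platforms. The Hox peaks lower on BGI were rich in GC, with a median of 64.5% in MEFs and 65.4% in mESCs, and with a GC term added 13 of 86 (12 lower and 1 higher on BGI) were called in MEFs, beside 12.7% of all peaks, and 16 of 75 (14 lower and 2 higher) in mESCs, beside 8.66%. The peak called in MEFs without the block was the Hoxd13 promoter, with 4.53, 4.39 and 4.13 CPM on BGI and 7.02, 7.90 and 7.48 CPM on Illumina in MEF 1, 2 and 4 (log2 difference -0.80, SE 0.16, adjusted p = 0.0281, edgeR). This peak has a GC content of 76.5%, and with the block and the GC term its difference was -0.23 (SE 0.13) and was no longer called (adjusted p = 0.256, edgeR). In mESCs the peaks were at Hoxa13 (-0.98), Hoxd8 (-0.96), Hoxc12 (-0.75) and Hoxa5 (-0.63). With the block and the GC term they were still called, at -0.45, -0.33, -0.45 and -0.32 in the same order. Their CPM, which carries no GC term, was lower on BGI in each of the 3 libraries.

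Whether the difference between cell types itself depended on the platform was tested with an interaction term over all 12 samples on the BGI peak set. None of the 91 Hox peaks was called in edgeR's test, where 0.386% of all peaks were, although 12 had an unadjusted p under 0.05 (5 without the block for the library, where no peak of the table was called). The lowest adjusted p was at Hoxc13 (0.0924, edgeR), where the log2 fold change was 0.38 smaller on Illumina (SE 0.11).

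Genes that work with or upstream of Hox genes were read in the same way, at their lead promoter peaks. All 7 Hox cofactor genes with a peak, of 9, were lower in mESCs on both platforms. Among these TALE homeodomain partners, Meis3 went from 37.3 to 10.5 CPM (log2 fold change -1.90 on BGI) and Meis1 from 26.0 to 13.1 CPM (-1.05). The opposite held for the homeobox genes upstream of or next to the Hox clusters. All 6 with a peak, of 7, were higher on both platforms, with Cdx1 (from 1.57 to 18.3 CPM, 3.48) and Cdx4 (from 1.08 to 12.3 CPM, 3.44), activators of Hox genes, the motor neuron gene Mnx1 (2.70) and Evx2 (1.25), the neighbour of Hoxd13. Cdx2 had no promoter peak.

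In the retinoic acid pathway, which induces anterior Hox genes, 7 of 13 genes with a peak were lower and 2 higher on BGI. The 2 were Cyp26c1 (from 1.499 to 7.26 CPM, log2 fold change 2.21) and Cyp26a1 (from 2.80 to 10.5 CPM, 1.84), whose enzymes break retinoic acid down. Of the receptor genes, Rxra (-1.66) and Rxrg (-1.27) were lower. Of 17 Polycomb and trithorax genes, whose products keep Hox genes off or on, 9 were lower and 4 higher on BGI and 7 lower and 5 higher on Illumina. The count of 9 fell to 5 without MEF 1 or without mESC 1 and with down-sampled depths. The Polycomb gene Cbx7 stood out with 6.12 CPM in MEFs and 22.5 CPM in mESCs (1.81). Of 33 developmental homeobox genes outside the clusters with a peak, 17 were higher and 7 lower, with Lhx5 (1.79), Tlx1 (1.57) and Emx1 (1.36) among the higher and the limb mesenchyme gene Prrx1 (15.2 and 1.89 CPM, -3.07) among the lower. The background for the BGI counts is the 31.3% of all BGI promoter peaks that were higher and the 41.0% that were lower. Of all BGI peaks, 40.9% were higher and 43.2% lower.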

How the data were processed

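Omni-ATAC-seq had been done on 6 libraries, each read on both platforms. Per the study's methods, the authors cut the longer Illumina reads to 100 bp, removed adapters from all reads with Cutadapt, aligned them with Bowtie2 to GRCm38/mm10, removed duplicates, low-quality and mitochondrial reads, down-sampled to 60 M (MEF) or 45 M (mESC) reads and called peaks with MACS2 in each sample. The deposited count tables hold raw read counts in reproducible peaks. The deposited peak lists hold for each summit a score, a fold enrichment and −log10 p and q values, of which only the −log10 p was used here as a threshold. Sample columns without a platform name were taken as Illumina, since their counterparts are named BGI, and their counts were checked against the peak lists.

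CPM was computed as counts per 1 M reads in the peaks of that table. Peaks were tested with edgeR 4.0.16 in R 4.3.3 (TMM scaling, filterByExpr, which dropped no peak, quasi-likelihood test, Benjamini-Hochberg adjustment over all peaks, threshold 0.05), with DESeq2 1.42.0 as an alternative, and the scripts were tested on simulated data. Sums and summits were compared with exact permutation tests. Named peaks were the 5 with the largest increase, the largest decrease, and the highest MEF and mESC level on each platform, and every listed gene's lead promoter peak was named, with up to 4 genes per other list that changed by 1 log2 unit or more and were called on both platforms. Other peaks within gene windows were picked after their values were seen. Sequences are printed for 5 of the named peaks, and others are not reported here. The Hox genes and the other gene lists were chosen with earlier results of these data known. Libraries of the same number deviated from their group mean alike on both platforms (MEF r of 0.617 to 0.837, mESC r of 0.515 to 0.725, against -0.675 to 0.289 and -0.511 to -0.115 for other numbers), and the labels give them as the same library, so the platform comparison was also fitted with a block. Alternatives were the scaling, the filter on low counts, DESeq2, windows of 0 and 5 kb, promoter windows of 500 bp and 2 kb, a minimum fold change and leaving out each library. Besides the 3 libraries per group, counting error limits the precision at low peaks: the 5 largest losses of each platform rest on 8 to 38 reads (BGI) and 2 to 39 reads (Illumina) per mESC library.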

Additional observations from a re-analysis of the deposited data

How the results depend on the processing

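Between mESCs and MEFs, 64 to 69 Hox peaks were called on BGI and 72 to 79 on Illumina when each library was left out in turn, and 35 (8 higher, 27 lower) and 39 (13 higher, 26 lower) with a log2 fold change of at least 1. Scaling by down-sampled depths moved the median of all peaks from -0.08 to 0.06 (BGI) and from -0.03 to 0.09 (Illumina), and the higher and lower Hox calls to 22 and 44 and to 33 and 44. Without the lead promoter peaks of Hoxc13 and Hoxd13 the posterior sum, mESC minus MEF, went from 35.5 to -2.53 CPM on BGI, and without that of Hoxc13 the posterior Hoxc sum went from 14.98 to -9.79 CPM on BGI and from 18.8 to -2.53 CPM on Illumina. These settings were chosen after seeing the data. No paired analysis was possible between the cell types because they share only the number 1.

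Between platforms, the replicate block raised the called Hox peaks to 23 in MEFs and 29 in mESCs, and the block with a GC offset gave 13 and 16. Without the block, edgeR called 1 in MEFs and 4 in mESCs, and DESeq2 gave 2 and 2. Leaving out libraries was done only without the block. It gave 0 to 7 in MEFs (0 without library 1 or 2, 7 without library 4) and 0 to 2 in mESCs (0 without library 1 or 5, 2 without library 3). The cause was not tested.

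Lead promoters changed sign as follows. With a 2-kb window, Hoxa3 became 0.071 on BGI and 0.20 on Illumina, Hoxa9 1.16 on BGI, Hoxb7 and Hoxb8 -0.94 on both and Hoxc12 -0.76 on Illumina, and with a 500-bp window Hoxa5 became -0.32 on Illumina, since these windows choose other peaks. Measured from the start codon, Hoxa9 became 1.16 on BGI and Hoxc9 -0.61 on BGI and -0.34 on Illumina, an alternative chosen after seeing the data. With down-sampled depths, Hoxa7 became 0.055 and Hoxb13 0.14 on BGI and Hoxb4 0.018 on Illumina, and Hoxb13 was 0.037 with RLE size factors and with DESeq2. Leaving out libraries gave Hoxa7 -0.16 to 0.0060 on BGI and -0.052 to 0.17 on Illumina, Hoxb13 -0.12 to 0.16 on BGI and Hoxc9 -0.056 to 0.26 on Illumina, none of them called with all libraries. Without a change of sign, down-sampled depths added 7 calls of lead promoters over both platforms and removed 3. Leaving out a library removed at most 3 (without mESC 5) and added at most 2 (without MEF 1 or MEF 4).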
